A study of Mus musculus with 12 samples.

Results

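The 10 genes Jak1, Jak3, Stat3, Stat4, Stat5a, Stat5b, Cish, Socs1, Socs2 and Socs3 were selected by symbol from the 55536 annotated genes of the count table, and all 10 passed the filter on low counts that left 18817 genes for testing. They were followed in 12 poly(A) RNA-seq libraries of mouse OT-I CD8+ T cells, whose transgenic T cell receptor recognizes the ovalbumin peptide SIINFEKL. Naive (2 libraries) was OT-I cells purified from transgenic mice without transfer or treatment. For Ag (5 libraries), OT-I cells with a congenic CD45 marker were transferred into C57BL/6J recipients, which were given the peptide with rat IgG. For Ag+Costim (5 libraries), recipients of the same cells were given the peptide with agonist antibodies against the costimulatory receptors CD134 (OX40) and CD137 (4-1BB). The labels place the harvest of spleen and lymph nodes at 4 days, after which OT-I cells were sorted. Age and sex of the mice behind a library were not given, Naive cells did not pass through a recipient, and each Ag+Costim recipient received both antibodies.

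Receptors for interferons and for many interleukins have no kinase activity of their own and are served by Janus kinases (JAKs) bound to their tails. When a cytokine binds, the JAKs phosphorylate the receptor and then STAT factors, which dimerize, enter the nucleus and bind palindromic DNA motifs in target genes. CIS and the SOCS proteins are themselves often induced by STATs and limit the signal by binding receptors or JAKs. In CD8+ T cells, JAK1 and JAK3 with STAT5 carry the IL-2, IL-7 and IL-15 signals for survival and expansion, STAT4 the IL-12 signal and STAT3 mainly the IL-6 and IL-21 signals.

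In Ag, transcripts of both kinases, of Stat3, Stat5a and Stat5b and of the inhibitors Cish, Socs2 and Socs3 were lower than in Naive. In Ag+Costim, Jak1, Jak3, Stat3, Stat5a, Stat5b and Cish were higher than in Ag, by 1.63-fold for Jak1 to 2.74-fold for Stat5b, and Socs1 was lower. Socs3 was low in both transferred groups, well below its Naive level. Stat4 was called in 1 of 3 comparisons, higher in Ag+Costim than in Naive. Levels are given as CPM, library-normalized counts after scaling the library sizes by edgeR's TMM method, and a gene was called where edgeR's quasi-likelihood test, adjusted over all 18817 genes, gave an adjusted p below 0.05.

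**Figure D1:**
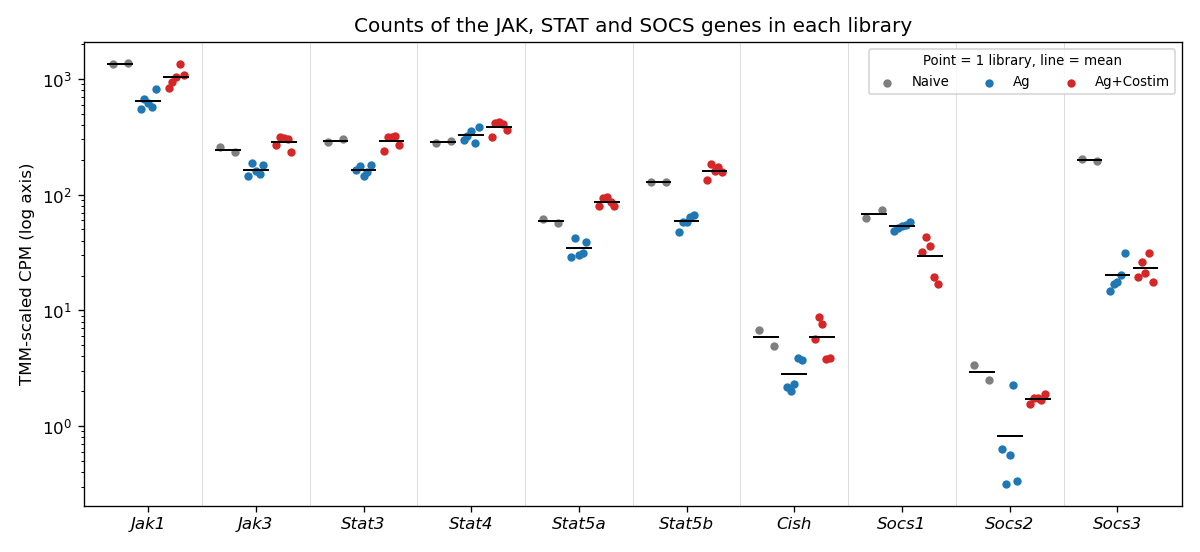
TMM-scaled CPM (log axis) of the 10 genes in each of 12 libraries, with a point for each library and a line at the mean of each group (2 Naive, 5 Ag and 5 Ag+Costim libraries). The Ag+Costim points lie above all Ag points for Jak1, Jak3, Stat3, Stat5a and Stat5b and below them for Socs1, and both Naive points of Socs3 (202 and 195 CPM) lie far above the other 10.

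In Ag against Naive, 8 of the 10 genes were called lower, 0 higher, and Stat4 and Socs1 were not called. Over all genes tested, 22.5% were called lower and 24.2% higher in this comparison (46.7% in either direction). The median log2 fold change was -0.95 over the 10 genes and 0.02 over all genes. From Ag to Ag+Costim, 6 of the 10 were called higher and 1 lower, against 26.6% and 26.5% of all genes (53.1% together), and the median was 0.82 against -0.05. In Ag+Costim against Naive, 2 were called higher and 2 lower, against 26.9% and 25.4% (52.3% together), and the median was 0.01 against -0.02. The libraries did not overlap for 9 genes in Ag against Naive, all 9 lower, which held for 29.2% of all genes, with another 27.2% higher. Between Ag and Ag+Costim they did not overlap for 5 genes that were higher and 1 that was lower (21.3% and 18.5% of all genes), and between Naive and Ag+Costim for 3 and 3 (31.7% and 34.2%). The comparisons share libraries, so a high or low Ag level enters both of the first comparisons with opposite sign. The genes called both lower in Ag than Naive and higher in Ag+Costim than Ag were Jak1, Jak3, Stat3, Stat5a, Stat5b and Cish, and 11.2% of all genes had that combination of calls.

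**Figure D2:**
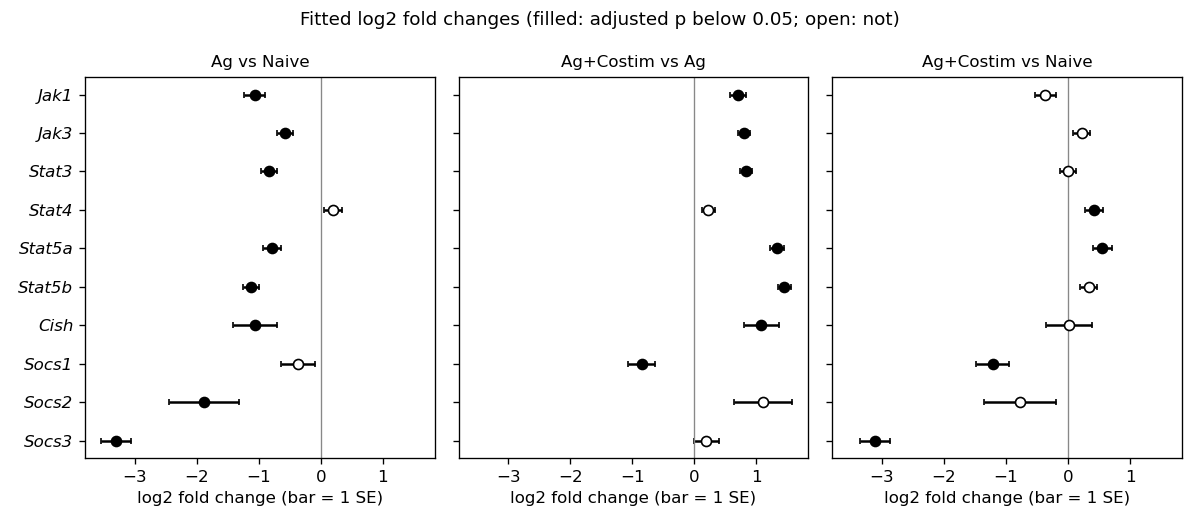
Fitted log2 fold changes of the 10 genes in the 3 comparisons, with bars of 1 standard error from edgeR and filled points where the adjusted p was below 0.05. In Ag vs Naive 8 points are filled and negative, and in Ag+Costim vs Ag 6 are filled and positive and 1 is filled and negative. In Ag+Costim vs Naive 2 are filled and negative, Socs3 at -3.10 and Socs1 at -1.21. Another 2 are filled and positive there, Stat5a at 0.55 and Stat4 at 0.42.

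The libraries held 23976932 to 49258758 counts of annotated genes, and a floor of 3 counts corresponded to 0.0617 to 0.119 CPM. Ag 4 was the shallowest library. All 6 CD8 T cell markers were detected in every group and summed to 9010 to 9660 CPM in Naive, 7120 to 10800 in Ag and 3980 to 5460 in Ag+Costim, while Cd4 stayed at or below 2.44 CPM. B cell markers (5 genes) summed to 1050 to 1060, 1110 to 1840 and 578 to 1190 CPM in that order of groups, myeloid markers (6 genes) to 27.8 to 103, 41.3 to 161 and 71.5 to 112 CPM, and NK cell markers (2 genes) to 11.7 to 13.5, 6.45 to 14.5 and 1.22 to 3.3 CPM. Within the myeloid list, Itgam (log2 fold change 2.40, edgeR's adjusted p = 0.00533) and Csf1r (1.55, edgeR's adjusted p = 0.0137) were called higher in Ag+Costim than in Ag, and the other 4 were not called. Itgam counted 1.27 to 3.32 CPM in Ag and 2.30 to 31.7 CPM in Ag+Costim, and Csf1r 1.42 to 8.35 and 5.48 to 34.8 CPM. Erythroid markers (5 genes) summed to 150 to 2070 CPM in Naive, 625 to 6370 in Ag, with Ag 4 the highest, and 14.5 to 222 in Ag+Costim. Proliferation markers (5 genes) summed to 30.4 to 31.7, 437 to 889 and 1850 to 2330 CPM. No gene of these lists was at 0 in all libraries of a group, and their part in the differences below was not tested. The sequencing core's sheet lists an input of 0 for each Ag library, 10 for each Ag+Costim library and 8.5 and 10.7 for Naive, in a unit it does not state. It does not say whether 0 stands for a missing value, and the part of input in differences between Ag and the other groups was not tested. Y-linked transcripts were high in 2 Ag, 2 Ag+Costim and 1 Naive library (replicates 1 and 2 of Ag and of Ag+Costim, and Naive 1), so the groups mixed both sexes. In bulk libraries, fewer cells of a type and less RNA per cell cannot be told apart. The labels do not name the mouse behind each library, so p-values measure the spread between these libraries, part of which may be technical.

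Jak1 encodes the kinase that serves the widest range of cytokine receptors, among them those for IL-2, IL-6 and interferons. It counted 1332 and 1359 CPM in Naive 1 and 2. It counted 549.5, 666, 618, 571 and 814 CPM in Ag 1 to 5, and 836, 937, 1037, 1336 and 1089 CPM in Ag+Costim 1 to 5. Every Ag library lay below both other groups, with Ag 5 (814 CPM) close under Ag+Costim 1 (836 CPM), and Ag+Costim 4 reached the Naive level. On the log2 scale the change was -1.06 (SE 0.17, edgeR's adjusted p = 1.73e-04) from Naive to Ag and 0.70 (SE 0.13, edgeR's adjusted p = 5.37e-04) from Ag to Ag+Costim. Against Naive, Ag+Costim was at -0.36 (SE 0.17) and not called (edgeR's adjusted p = 0.0934). That comparison was called lower on FPKM (-0.62), with upper-quartile scaling (-0.51) and without Ag+Costim 4 (-0.45). With a correction of each library for transcript length the difference between Ag+Costim and Ag was 0.26 and not called (edgeR's adjusted p = 0.143).

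Jak3 encodes the kinase bound to the common gamma chain of the receptors for IL-2, IL-7, IL-15 and IL-21, and its loss causes severe combined immunodeficiency. It counted 257 and 233 CPM in Naive, and 145, 187, 158, 151 and 179 CPM in Ag 1 to 5. It counted 266, 313, 308, 304 and 235 CPM in Ag+Costim 1 to 5. All Ag libraries lay below all others, and Naive 2 and Ag+Costim 5 were nearly level. Jak3 fell by 0.58 on the log2 scale from Naive to Ag (SE 0.13, edgeR's adjusted p = 0.00253), and rose by 0.80 from Ag to Ag+Costim (SE 0.10, edgeR's adjusted p = 1.75e-05), which is 1.74-fold. The fall became -0.14 and was not called with the length correction (edgeR's adjusted p = 0.345). Ag+Costim and Naive differed by 0.22 (SE 0.14, edgeR's adjusted p = 0.185).

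Stat5a and Stat5b encode closely related factors that act downstream of IL-2 and IL-7, and they had the largest rises of the 10 genes from Ag to Ag+Costim among those called. Stat5a counted 61.2 and 57.0 CPM in Naive. It counted 28.8, 42.0, 30.3, 31.5 and 38.8 CPM in Ag 1 to 5, and 79.2, 93.3, 95.0, 85.8 and 80.5 CPM in Ag+Costim 1 to 5. No group overlapped another, with Ag lowest, Naive between and Ag+Costim highest. The log2 fold change was -0.78 from Naive to Ag (SE 0.14, edgeR's adjusted p = 5.07e-04), 1.34 from Ag to Ag+Costim (SE 0.11, edgeR's adjusted p = 4.59e-07) and 0.55 from Naive to Ag+Costim (SE 0.15, edgeR's adjusted p = 0.00709). The difference from Naive to Ag+Costim was not called without Naive 2 (0.50, edgeR's adjusted p = 0.0821) or by limma on log2(FPKM + 0.1) (0.42, adjusted p = 0.0524).

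Stat5b counted 127.7 and 128.0 CPM in Naive, and 47.3, 58.5, 57.5, 64.6 and 66.2 CPM in Ag 1 to 5. It counted 133, 182, 160.3, 172 and 156 CPM in Ag+Costim 1 to 5. The groups again did not overlap, although Ag+Costim 1 was close to Naive. Stat5b fell by 1.12 on the log2 scale from Naive to Ag (SE 0.13, edgeR's adjusted p = 1.58e-05) and rose by 1.45 from Ag to Ag+Costim (SE 0.11, edgeR's adjusted p = 1.58e-07), or 2.74-fold. Relative to Naive, Ag+Costim was at 0.33 (SE 0.14) and narrowly missed the threshold (edgeR's adjusted p = 0.0624). It was called without Ag 1 (0.33), without Ag+Costim 1 (0.39), with the length correction (0.46) and with both groups fitted alone (0.33).

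Stat3 encodes the factor used by the IL-6, IL-10 and IL-21 receptors. It counted 282 and 302 CPM in Naive, and 163, 176, 144, 156 and 179 CPM in Ag 1 to 5. It counted 238, 312, 315, 323 and 269.7 CPM in Ag+Costim 1 to 5, which spanned the Naive values, and every Ag library lay below both. The log2 fold change was -0.84 from Naive to Ag (SE 0.12, edgeR's adjusted p = 1.09e-04) and 0.83 from Ag to Ag+Costim (SE 0.10, edgeR's adjusted p = 8.75e-06). The means of Naive and Ag+Costim were both 292 CPM, with an adjusted p of 0.997 in edgeR's test and a standard error of 0.13 on the log2 scale.

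Stat4 encodes the factor that IL-12 receptors use to drive interferon gamma. It counted 280.0 and 292 CPM in Naive, and 296, 320.0, 357, 278 and 384 CPM in Ag 1 to 5. It counted 313, 412, 420.2, 405 and 359 CPM in Ag+Costim 1 to 5. Ag overlapped both other groups, and the lowest Ag+Costim library was above both Naive libraries. The log2 fold changes of 0.19 from Naive to Ag (SE 0.14, edgeR's adjusted p = 0.291) and 0.22 from Ag to Ag+Costim (SE 0.11, edgeR's adjusted p = 0.0959) were not called. The latter was called at 0.29 without Ag 5 or without Ag+Costim 1, and the former at 0.40 with the length correction. The value of 0.42 from Naive to Ag+Costim was called (SE 0.15, edgeR's adjusted p = 0.0272). It was not called on FPKM (0.15), with upper-quartile scaling (0.26), with the replicate block (0.33, edgeR's adjusted p = 0.0901), or without Naive 1 (0.38), Naive 2 (0.44) or Ag+Costim 3 (0.38).

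Cish encodes CIS, which binds cytokine receptors and is a textbook STAT5 target. Near its start in RefSeq, a STAT motif of the form TTCNNNGAA, which reads the same on both strands, occurs at 2 places. Socs3, a STAT3 target whose product blocks JAKs at the shared receptor chain of the IL-6 family, has 1 such motif. Of 12 RefSeq promoter windows (250 bases before to 50 after a start, GRCm38.p6, the patched mm10) for 9 of the 10 genes, these were the 2 that held the motif, and 2726 of all 32851 windows held it (8.3%). These 2 sites are shown because the motif is the one that STAT dimers bind, and capitals mark it.
Cish: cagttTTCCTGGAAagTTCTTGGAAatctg
Socs3: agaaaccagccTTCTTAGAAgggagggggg
The Cish stretch is chr9:107296654-107296683 on the plus strand, in untranslated exon sequence of Cish-201 in GENCODE vM21, with motifs that begin at bases 1 and 12 counted from the RefSeq start. The Socs3 stretch is chr11:117969502-117969531 on the minus strand, with a motif that begins 154 bases before the RefSeq start. It lies within the span of Socs3-202, and no annotated Socs3 exon holds the whole stretch. A match is a match of letters only, and no binding was measured in these libraries.

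Cish counted 6.79 and 4.93 CPM in Naive, and 2.17, 1.99, 2.31, 3.92 and 3.73 CPM in Ag 1 to 5. It counted 5.64, 8.69, 7.61, 3.79 and 3.89 CPM in Ag+Costim 1 to 5. Ag+Costim 4 and 5 lay among the 2 highest Ag libraries, and Ag+Costim 1 to 3 lay above all Ag libraries. Cish rose by 1.08 on the log2 scale from Ag to Ag+Costim (SE 0.28, edgeR's adjusted p = 0.00581). Its value in Ag against Naive was -1.06 on the same scale (SE 0.36, edgeR's adjusted p = 0.0257), called lower, a call that was lost without any 1 of 5 libraries. The values were -0.98, -0.96 and -1.0 without Ag 1, 2 or 3, and -0.81 and -1.27 without Naive 1 or 2. The call was also lost with the replicate block (-1.09, edgeR's adjusted p = 0.113) and with the length correction (-0.81, edgeR's adjusted p = 0.0861). Naive and Ag+Costim differed by 0.02 (SE 0.37, edgeR's adjusted p = 0.978), an error wide enough for changes in either direction.

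Socs3 showed the widest gap between Naive and transferred cells. It counted 202 and 195 CPM in Naive, against 14.6, 17.1, 17.7, 20.4 and 31.1 CPM in Ag 1 to 5. It counted 19.4, 25.9, 21.1, 31.1 and 17.6 CPM in Ag+Costim 1 to 5. The lowest Naive library was far above every other library, and Ag and Ag+Costim covered the same range. The log2 fold change from Naive was -3.30 to Ag (SE 0.24, edgeR's adjusted p = 3.65e-07) and -3.10 to Ag+Costim (SE 0.24, edgeR's adjusted p = 3.11e-07). Ag+Costim and Ag differed by 0.19 (SE 0.20, edgeR's adjusted p = 0.441).

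Socs1 encodes a direct inhibitor of JAK kinases and the main brake on interferon gamma signalling. It counted 63.3 and 74.0 CPM in Naive, and 48.5, 51.5, 53.8, 54.5 and 58.4 CPM in Ag 1 to 5. It counted 32.3, 43.3, 36.3, 19.5 and 16.7 CPM in Ag+Costim 1 to 5, so every Ag+Costim library lay below every Ag library, with libraries 4 and 5 lowest. Socs1 fell by 0.85 on the log2 scale from Ag to Ag+Costim (SE 0.22, edgeR's adjusted p = 0.00457), and was the only one of the 10 genes called lower. Against Naive, Ag+Costim was lower by -1.21 (SE 0.27, edgeR's adjusted p = 0.00197). Between Naive and Ag the value was -0.36 (SE 0.28, edgeR's adjusted p = 0.302), although all 5 Ag libraries lay below both Naive libraries. Fitted to those groups alone it was -0.37 and called (edgeR's adjusted p = 0.0303). 

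Socs2 encodes an adaptor best known for limiting growth hormone signalling through STAT5, and was the scarcest of the 10. It counted 3.40 and 2.50 CPM in Naive, and 1.57, 1.75, 1.74, 1.70 and 1.90 CPM in Ag+Costim 1 to 5. It counted 0.636, 0.313, 0.559 and 0.337 CPM in Ag 1, 2, 3 and 5 but 2.25 CPM in Ag 4, which lay above all Ag+Costim libraries. Ag 4 was also the library with the highest erythroid marker sum, 6370 CPM, and the part of that in its Socs2 value was not tested. Between Ag and Ag+Costim, Socs2 differed by 1.11 on the log2 scale (SE 0.47), not called (edgeR's adjusted p = 0.0616). Without Ag 4 the difference was 1.90 and called (edgeR's adjusted p = 7.38e-05). DESeq2 called it with all libraries (1.12, adjusted p = 0.0396), as did limma on FPKM. Compared with Naive, Socs2 in Ag fell by 1.88 on the log2 scale (SE 0.57, edgeR's adjusted p = 0.0157), and this was not called without Naive 1 (-1.64, edgeR's adjusted p = 0.111). For Ag+Costim against Naive the value was -0.77 (SE 0.58, edgeR's adjusted p = 0.278), although all Ag+Costim libraries lay below both Naive libraries. It was called without Ag 4 (-0.77, edgeR's adjusted p = 0.0429) and with both groups fitted alone (-0.77, edgeR's adjusted p = 0.0155). Limma on log2(FPKM + 1) also called it (-0.69, adjusted p = 0.00986).

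Levels of different genes were compared per transcript length, as FPKM, StringTie's fragments per kilobase scaled to library size, summed over the transcripts of a gene. Jak1 was the highest in each group, with 320.5 ± 5.77 FPKM in Naive (SD, n = 2), 133 ± 20.3 in Ag (SD, n = 5) and 211 ± 38.4 in Ag+Costim (SD, n = 5). In Ag, its range overlapped that of Stat4 (114 ± 10.5 FPKM, SD, n = 5), which came next. Socs3 was the third in Naive at 88.3 ± 2.90 FPKM (SD, n = 2) and the eighth in Ag at 7.91 ± 2.55 and in Ag+Costim at 9.05 ± 2.41 FPKM (SD, n = 5 each). Stat3 and Jak3 stood side by side in all groups, and their ranges overlapped in Ag and in Ag+Costim. Cish and Socs2 were last in each group, at 0.40 to 2.16 FPKM on average, and overlapped each other except in Ag+Costim.

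**Figure D3:**
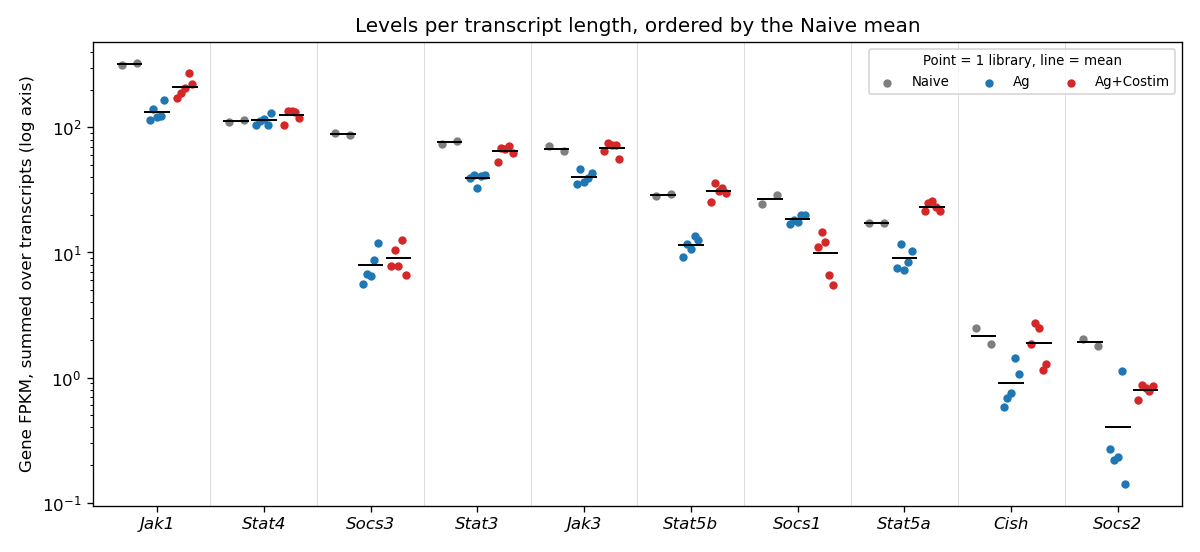
FPKM of the 10 genes (log axis), summed over transcripts, in each of 12 libraries, ordered by the Naive mean, with a point for each library and a line at the group mean. Socs3 stands just after Stat4 in Naive at 88.3 FPKM and drops to 7.91 in Ag and 9.05 in Ag+Costim, while Stat4 stays between 112 and 125 FPKM on average.

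Ratios of FPKM within a library are given as a description, with no test. The ratio of Socs1 to Socs3 FPKM was 0.27 and 0.337 in Naive, 1.66 to 3.01 in Ag and 0.526 to 1.56 in Ag+Costim, with no overlap. The ratio of Socs1 to Cish was 9.83 and 15.7 in Naive, 13.8 to 29.2 in Ag and 4.33 to 5.88 in Ag+Costim, which was below all other libraries. Stat5b exceeded Stat5a in every library, by 1.63 and 1.70 times in Naive, 1.01 to 1.61 times in Ag and 1.19 to 1.43 times in Ag+Costim. The ratio of Jak1 to Jak3 was 4.49 and 5.03 in Naive, 3.02 to 3.83 in Ag and 2.52 to 3.94 in Ag+Costim.

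Stat5b, Stat5a and Stat3 lie next to each other on chromosome 11 of mm10. Stat5b (100780731 to 100850724, minus strand) and Stat5a (100859351 to 100885169, plus strand) start 8.6 kilobases apart and point away from each other. Stat5a and Stat3 (100885098 to 100939540, minus strand) share 72 bases at their ends. Socs3 lies on the same chromosome at 117966079 to 117970047. Jak1 is on chromosome 4 (101152367 to 101265282), Jak3 on chromosome 8 (71676296 to 71690575), Stat4 on chromosome 1 (51987148 to 52107189) and Cish on chromosome 9 (107296026 to 107302784). Socs1 is on chromosome 16 (10782240 to 10785536) and Socs2 on chromosome 10 (95385362 to 95417180). Another annotated gene overlaps 6 of the 10, on the same strand for Jak1, Jak3 and Stat4, and reads in such stretches could not be told apart.

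Transcript usage was compared as the share of each annotated transcript in the transcript counts of its gene, for transcripts with a mean share of at least 10% in Ag or Ag+Costim. StringTie estimates such counts from coverage, and they are less direct than gene counts. Of the 18 transcripts of the 10 genes, 0 were called between Ag and Ag+Costim by an exact permutation test, two-sided, and 4 had an unadjusted p below 0.05. The smallest p that 252 arrangements of 5 against 5 allow is 0.00794, which the adjustment raised to 0.0781 in this permutation test. It could therefore call no transcript, however far apart the groups were, and 0 of 20284 transcripts of all genes were called (0%). A limma fit on the log2 odds of the share, added after the data were seen, called 7.16% of all transcripts and 2 of these 18, both of Stat5b.

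Stat5b-201 held 84.1%, 98.0%, 80.2%, 96.6% and 86.6% of Stat5b transcript counts in Ag 1 to 5 and 99.8%, 99.2%, 99.0%, 99.2% and 99.6% in Ag+Costim 1 to 5. Stat5b-202, which starts downstream of Stat5b-201 (its first base is 100822528 on the minus strand), held most of the rest, with means of 10.7% in Ag and 0.3% in Ag+Costim. Neither overlapped between these groups (exact permutation p = 0.00794, adjusted p = 0.0781), and limma's adjusted p was 0.0167 and 0.0222. Naive held 97.1% and 57.9% of Stat5b-201, a wider spread than either treated group.

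Stat5a-201 and Stat5a-203 both encode protein, and Stat5a-203 starts at 100860484, downstream of Stat5a-201. Stat5a-203 held 90.6%, 91.9%, 92.4%, 87.4% and 90.8% of Stat5a transcript counts in Ag+Costim 1 to 5. In Ag it held 0.0%, 82.0%, 0.0%, 0.0% and 83.1%, and in Naive 0.0% and 85.0%. Libraries of Ag and of Naive thus fell to either extreme, with Stat5a-201 at 87.9% to 93.2% where Stat5a-203 was listed at 0. The exact permutation p was 0.00794 for Stat5a-203 and 0.0159 for Stat5a-201 (adjusted p = 0.0781 and 0.12), and limma did not call either (adjusted p = 0.11 and 0.106).

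**Figure D4:**
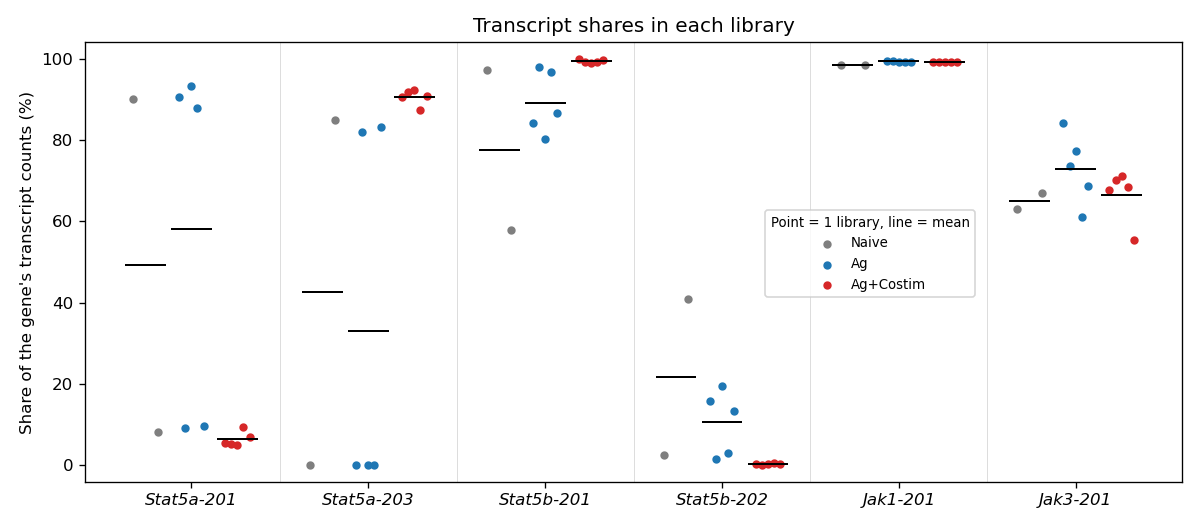
Share (percent) of 6 transcripts of Stat5a, Stat5b, Jak1 and Jak3 in the transcript counts of their gene, with a point for each of 12 libraries and a line at the mean of each group. Stat5a-201 and Stat5a-203 lie at opposite extremes within Ag and Naive, Stat5b-201 lies at 99.0% to 99.8% in Ag+Costim, and Jak1-201 holds at least 98.5% everywhere.

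Jak1-201, Socs3-201 and Stat4-201 held 96.0% or more of their gene in every library. The shares of Socs1-201 ran from 39.1% to 74.6% in Ag and from 11.8% to 79.9% in Ag+Costim, with means of 54.5% and 54.0%.

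The authors' Whippet table gives Psi, the fraction of reads at an exon or end segment (node) that include it, with 1 value per group and no replicate check. It lists 152 nodes in 8 of the 10 genes. Of these, 2 differed by at least 0.2 between Ag and Ag+Costim, both tandem ends of Jak3 on chromosome 8. The node from 71688163 to 71688556 went from 59.7% in Ag to 1.29% in Ag+Costim, and the adjoining node from 71688557 to 71688558 from 40.3% to 98.7%. The latter is 2 bases long, the distance between the annotated ends of Jak3-203 and Jak3-202. The transcript shares showed no shift of that size. Jak3-203, which ends at 71688556, held means of 17.7% in Ag and 15.0% in Ag+Costim (exact permutation p = 0.81). Jak3-201, which ends beyond both nodes at 71690575, held 72.9% and 66.6%, and Jak3-202 did not reach the 10% share needed for testing. A pair of Stat3 end segments, named after their values were seen, differed less in Psi than the Jak3 nodes. The segment from 100888236 to 100888680, which ends where Stat3-201 ends, was at 0.737% in Ag and 15.7% in Ag+Costim, and that from 100886810 to 100888235, which ends with Stat3-203, at 98.8% and 84.0%. The largest difference among the other nodes was in an end segment of Socs2 (53.8% in Ag and 36.8% in Ag+Costim).

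Of 20 other JAK-STAT signalling genes (kinases, STATs, SOCS and PIAS proteins and phosphatases), 5 rose and 5 fell between Ag and Ag+Costim, shares close to those of all genes (26.6% and 26.5%), with a median log2 fold change of 0.02 against -0.05 over all genes. The largest rises were in Pias3 (1.14), an inhibitor of STAT3, Tyk2 (1.04), a kinase of interferon and IL-12 receptors, and Socs6 (0.94). Tyk2 counted 56.3 to 74.5 CPM in Ag and 119.8 to 148 CPM in Ag+Costim. The largest falls were in Socs5 (-1.21), the phosphatase gene Ptpn11 (-0.75) and Irf9 (-0.56), an interferon-response transcription factor. Between Naive and Ag, 3 were called higher and 5 lower, against 24.2% and 22.5% of all genes. The largest rises were in Ptpn11 (1.50), Jak2 (0.60) and Ptpn1 (0.48), and the largest falls in Stat6 (-0.95), Pias3 (-0.77) and Stat2 (-0.73). Between Naive and Ag+Costim, 4 were called higher and 3 lower, against 26.9% and 25.4% of all genes. Usp18 (1.48), Ptpn11 (0.75) and Pias3 (0.37) had the largest rises and Socs5 (-1.61), Pias1 (-0.58) and Socs7 (-0.56) the largest falls.

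**Figure D5:**
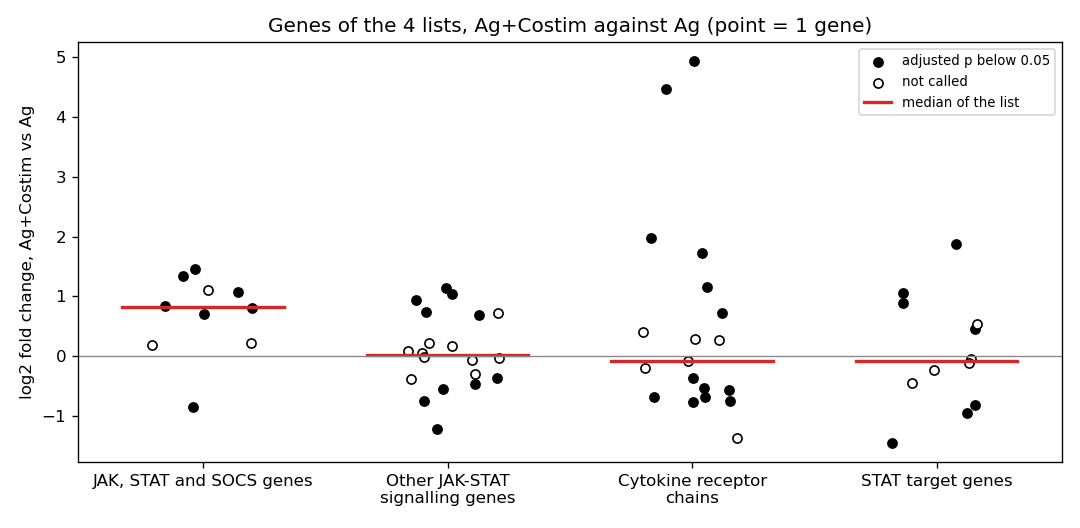
Fitted log2 fold change, Ag+Costim against Ag, for each gene of 4 lists, with filled points for an adjusted p below 0.05 in edgeR's test and a line at the median of the list. The line stands at 0.82 for the 10 JAK, STAT and SOCS genes, at 0.02 for 20 other signalling genes and at -0.08 for both 19 receptor chains and 12 STAT target genes.

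Of 19 cytokine receptor chains, 6 were called higher and 7 lower from Ag to Ag+Costim, against 26.6% and 26.5% of all genes, with a median of -0.08 against -0.05. The largest rises were in Il2ra (4.93), Il12rb2 (4.47) and Il2rb (1.97). Il2ra counted 1.03 to 5.42 CPM in Ag and 29.3 to 122 CPM in Ag+Costim, and Il2rb 263 to 455 and 1172 to 1430.0 CPM. Il2rg, the common gamma chain that JAK3 binds, went the other way and fell by 0.68 on the log2 scale (edgeR's adjusted p = 1.60e-04), from 1440.1 to 2081 CPM in Ag to 1059 to 1378 CPM in Ag+Costim. It was also called lower in Ag+Costim than in Naive (-0.51). The largest falls were in Ifnar2 (-0.77), Il10rb (-0.75) and Ifngr2 (-0.69). Of the same chains, 3 were called higher and 8 lower from Naive to Ag, against 24.2% and 22.5% of all genes. These falls were largest in Ifngr2 (-3.85), Il6ra (-3.35) and Il7r (-2.43), against rises in Ifnar2 (0.96) and Il12rb1 (0.88). Il6ra, which feeds STAT3, counted 204 and 197 CPM in Naive and 11.5 to 35.6 CPM over the other 10 libraries. In Ag+Costim compared with Naive, 7 were called higher and 9 lower, against 26.9% and 25.4% of all genes. Among chains with a mean log2 CPM above 1, Il2ra (4.33), Il12rb2 (3.53) and Il12rb1 (2.60) were highest and Ifngr2 (-4.54), Il6ra (-3.44) and Il7r (-2.96) lowest. Il9r, below that level and at 0 counts in both Naive libraries, was also called higher in both comparisons with Naive, at 0.356 to 1.70 CPM in Ag and 0.142 to 0.753 CPM in Ag+Costim.

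Of 12 genes known as STAT targets, 4 were called higher and 3 lower from Ag to Ag+Costim, against 26.6% and 26.5% of all genes, with a median of -0.08 against -0.05. Pim1 (1.88), a kinase gene induced by STAT5, Bcl2l1 (1.05), which encodes the survival protein BCL-XL, and Myc (0.89) rose most. Ccnd2 (-1.45), Bcl2 (-0.95) and Ifng (-0.83), which encode cyclin D2, a survival protein and interferon gamma, fell most. Pim1 counted 41.5 and 38.3 CPM in Naive, 3.60 to 7.75 CPM in Ag and 13.3 to 21.9 CPM in Ag+Costim, with no overlap between groups. Relative to Naive, 3 were called higher and 4 lower in Ag, against 24.2% and 22.5% of all genes. Those higher were Ifng (4.37), Bcl2l1 (0.60) and Il18r1 (0.55), and those lower were led by Pim1 (-3.15), Bcl2 (-1.72) and Myc (-1.21). The calls from Naive to Ag+Costim were 3 higher and 4 lower, against 26.9% and 25.4% of all genes. Again Ifng (3.55), Bcl2l1 (1.65) and Il18r1 (1.00) were higher, and those lower were led by Bcl2 (-2.68), Ccnd2 (-1.32) and Pim1 (-1.27).

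Pearson's r of log2 CPM over the 12 libraries, computed against 9542 other genes (9543 for Cish and Socs2) with a mean log2 CPM above 3, was used to describe which gene each resembled. The libraries form 3 groups, so a high r follows from shared group means. Stat5b was most like Sept9 (0.993), Stat5a most like Pxn (0.991), Stat3 most like Pi4kb (0.99), Jak1 most like Nub1 (0.983), Jak3 most like Gtf3c3 (0.981) and Stat4 most like S1pr2 (0.936). Among the inhibitors, Socs3 was most like March7 (0.981), Socs2 most like Cbl (0.971), Cish most like Eif2ak4 (0.953) and Socs1 most like Filip1l (0.944). Within the 10 genes, Jak3 and Stat5a were most like each other (0.975), and the highest r of Socs1 with another of the 10 was 0.444, with Socs3.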

How the data were processed

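Poly(A) RNA of 12 libraries was made into SMART-Seq v4 and Nextera XT libraries, which do not mark strand. The authors aligned single reads of 100 bases to mm10 with HISAT2 2.1.0 and SAMtools 1.9 and quantified them with StringTie 2.1.0, with versions as in the submitters' processing notes. The deposited count values per gene and per transcript are StringTie's coverage-derived counts, not normalized, and a count does not stand for 1 read. The FPKM values were also deposited as StringTie gives them for each transcript. The deposited Psi values are a fraction per group from Whippet, and that table's columns of differences and probabilities, the authors' own comparison, were not used. A sheet of the sequencing core, deposited as well, holds reads and the percent of complexity, whose definition it does not state.

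From there, 26345 unannotated loci (0.0508% to 0.121% of counts) were left out, and 55536 genes were matched to GENCODE vM21. With edgeR 4.0.16 in R 4.3.3, counts were TMM-scaled and filtered with filterByExpr, and a model of all 12 libraries with a term for each group was tested with the robust quasi-likelihood test, two-sided. P-values were adjusted by the Benjamini-Hochberg method over 18817 genes. Called means an adjusted p below 0.05. The script was tested on simulated data with 200 genes changed by 1 on the log2 scale between Ag and Ag+Costim. It called 96 of these in the right direction (48%) and 4 unchanged genes. The 200 were among 18171 genes, whereas 9985 of 18817 genes were called between Ag and Ag+Costim in the real libraries. The adjustment of p-values depends on how many genes change, so the share found in the real libraries was not tested. A gene that is not called may still have changed. Alternatives used DESeq2 1.42.0, limma 3.58.1 on log2(FPKM + 1) or log2(FPKM + 0.1), other scaling, no filter, a length correction, a replicate block, and each library left out. FPKM entries carry gene names only and were matched to transcripts within a gene by their counts. Sequences come from RefSeq. Python 3.11.15 was used.

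The 10 genes and the lists were chosen with earlier results of these data known. Of each other list, up to 3 called rises and 3 called falls with a mean log2 CPM above 1 are named for each comparison. Of the other genes, the 1 with the highest r is named for each of the 10. Floors of 3 counts cover counting error only.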

Additional observations from a re-analysis of the deposited data

Results flagged for a closer look

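Socs2 counted 2.25 CPM in Ag 4, while the other 4 Ag libraries lay between 0.313 and 0.636 CPM. The gap from Ag 4 to the nearest of them took 0.834 of the range of the group, above the critical ratio of 0.71 for 5 libraries in Dixon's test. The 10 genes were looked at in both groups of 5 libraries, 20 tests in all, and chance sets apart a library in about 1 in 20. Ag 4 also had the fewest counts (23976932) and the highest sum of erythroid markers, and the part of either in its Socs2 level was not tested.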

How the results depend on the processing

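In Ag+Costim against Ag, each of the 7 called genes among the 10 kept its direction and its call under every alternative tried, except Jak1 with the length correction (0.26). The value of Socs3 in that comparison, not called, went from 0.19 to 0.00 with upper-quartile scaling, which moved the median of all genes to -0.24 (Ag+Costim against Ag) and -0.18 (Ag+Costim against Naive). From Naive to Ag+Costim, Stat3 (-0.00149) was 0.02 without the filter, 0.07 with the length correction and between -0.06 and 0.06 with 1 library left out (above 0 without Ag+Costim 1, Ag+Costim 5 or Naive 2, at 0.06, 0.03 and 0.04), and Cish (0.02) was -0.14 with upper-quartile scaling, -0.15 and -0.24 on log2(FPKM + 1) and log2(FPKM + 0.1), and -0.16, -0.09 and -0.20 without Ag+Costim 2, Ag+Costim 3 or Naive 2. None of these was called.

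Counts of calls moved as follows, and the cause was not tested. Of other signalling genes lower in Ag+Costim than Ag, there were 5, and 8 with upper-quartile scaling or the length correction. Of STAT targets lower in that comparison, there were 3, and 5 with upper-quartile scaling or on FPKM with either pseudocount. From Naive to Ag with the length correction, 1 of the 10 genes was higher in place of 0, and of other signalling genes 7 were higher in place of 3 and 2 lower in place of 5. From Naive to Ag+Costim, the 2 of the 10 genes called higher became 1 with upper-quartile scaling or on log2(FPKM + 1) and 0 on log2(FPKM + 0.1), and the 2 called lower became 4 on log2(FPKM + 1). Of other signalling genes in that comparison, the 4 higher became 2 with upper-quartile scaling or on FPKM, and 7 with both groups fitted alone or the length correction, and the 3 lower became 5 on FPKM and 1 with the length correction. The 4 STAT targets called lower became 7 on log2(FPKM + 1). A term for Y-linked transcripts, added after the data were seen, changed no call of the 10 genes. For transcript shares, limma on the log2 odds gave 2 calls, where the permutation test could give only 0.

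Leaving out 1 library gave 6 to 7 of the 10 genes higher and 1 lower in Ag+Costim than Ag, and 6 to 8 lower in Ag than Naive. From Naive to Ag+Costim it gave 0 to 3 higher and 2 to 3 lower, with 0 without Naive 2 and 1 without Naive 1 or Ag+Costim 3. Of other signalling genes it gave 2 to 5 higher (5 without Ag 4) and 3 to 5 lower (3 without either Naive library) from Naive to Ag, and 1 to 7 higher and 1 to 3 lower from Naive to Ag+Costim, with 7 higher without Ag 4, 2 without Ag+Costim 3 and 1 higher and 1 lower without either Naive library. Of STAT targets it gave 3 to 5 lower in Ag+Costim than Ag (5 without Ag+Costim 4) and 1 to 3 higher in Ag than Naive (1 without Naive 1). Where 1 Naive library was left, its spread was taken from the other groups.

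Libraries of Ag and Ag+Costim share replicate numbers, but the labels tie no number to a mouse or a day. Y-linked transcripts were high in libraries 1 and 2 and low in 3 to 5 of both groups, so the number goes with sex. The deviations of same-numbered libraries correlated at 0.016 to 0.095 over 5 pairs, and 3 of 5 Ag libraries correlated best with their own number, so the numbers were not taken to pair libraries. With the replicate block, 7 of the 10 genes were higher and 1 lower in Ag+Costim than Ag (Socs2 was added, 1.49), 7 were lower in Ag than Naive (Cish was lost), and 1 was higher and 3 lower in Ag+Costim than Naive (Stat4 was lost and Jak1 added, -0.53). With it, 1 of the other signalling genes was lower in place of 3 in that comparison, and Cish was -0.03.

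The split of all genes called moved from 5006 higher and 4979 lower to 4056 and 6338 with upper-quartile scaling for Ag+Costim against Ag. For Ag against Naive it moved from 4559 and 4233 to 3571 and 5624 on log2(FPKM + 1), and for Ag+Costim against Naive from 5066 and 4778 to 3932 and 6528. With 2 Naive libraries, calls against Naive rest on few values, and Cish and Socs2, at 14 to 392 counts in a library, are measured less precisely than the others.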
